A study of Mus musculus with 6 samples.

Results

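Macrophage and myeloid genes were examined in whole mouse heart as a group of 35 genes, taken from a list of gene names that was drawn up with earlier results of these data known. No measured value enters the rule. They mark the cells of the macrophage lineage, their growth and Fc receptors, their complement products and their resident, recruited and lipid- or injury-associated states. Every probe set that the platform table annotated to exactly 1 of these genes was taken, which gave 63 probe sets for the 35 genes, out of 45037 probe sets and 18193 named genes in all. The hearts labelled hAT1R transgenic came from C57BL/6 mice that overexpress hAT1R, the human type 1 angiotensin II receptor, and those labelled non-transgenic came from normal C57BL/6 mice, with 3 arrays in each group. The design text calls the animals matched for age and sex, although the sex-linked genes described below were not balanced between the groups. The sources used here do not give the promoter that drives the transgene, the age or the number of founder lines. They also leave unsaid whether every array had its own animal, so p-values reflect only how far these arrays spread, part of which may be technical.

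Macrophages are present in the healthy heart, where long-lived resident cells clear debris and mark themselves with scavenger and folate receptors. Monocytes that enter from blood carry the chemokine receptor Ccr2 and adhesion integrins, and macrophages that take up lipid or dying cells switch on genes such as Trem2, Gpnmb and Lgals3. Colony stimulating factor 1 keeps these cells alive through its receptor, and the transcription factor PU.1, the product of Spi1, directs their gene expression.

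The 6 arrays were alike in scale, with median log2 values from 3.25 to 3.31. All 7 cardiomyocyte genes of the tissue check were bright, at log2 13.26 or above on every array, and all 5 lung genes lay below the brightness filter. A word typed into the instrument's chip lot field contradicts the sample labels: arrays labelled transgenic carry "control" there, and those labelled non-transgenic carry "transgene". Groups here follow the sample labels, and each sign below would turn if the typed words were right. No probe set of the platform table names the human receptor, so it could not settle the question. Fluidics station 2 processed all labelled transgenic arrays plus non-transgenic array 1, and station 3 processed non-transgenic arrays 2 and 3. Each difference below with the station as a block is therefore the labelled transgenic mean minus non-transgenic array 1 alone. A station effect and the values of that single array cannot be told apart in it. Labelled transgenic arrays were scanned before any other, so scan order and group cannot be told apart. Xist, the RNA of the inactive X chromosome, was high on labelled transgenic arrays 1 and 3, at log2 9.48 on both, and on non-transgenic array 2, at 9.69, and lay at 3.01 or lower on the others. Eif2s3y, a gene of the Y chromosome, was at 9.21 on labelled transgenic array 2. It was at 9.17 and 9.25 on non-transgenic arrays 1 and 3, and below 3.6 on the others. The 3′ minus 5′ log2 signal of the actin control, a gauge of RNA integrity, was 0.879 ± 0.074 (SD, n = 3) on labelled transgenic arrays and 1.01 ± 0.04 on non-transgenic ones, without overlap (exact permutation, 2-sided, p = 0.1, which is the lowest value possible with 3 arrays a group). Its part in the differences below was not tested.

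Promoters of the members were set against the binding letters of PU.1. Letters GAGGAA were searched on both strands in windows from 250 bases before to 50 bases after each gene's start, using the RefSeq promoters of GRCm38.p6, in which 26 of the 35 members had 30 windows. The letters stood in 16 of these 30 windows (53.3%), against 28.3% of all 32851 windows. By gene, at least 1 window held them for 14 of the 26 members, against 8446 of all 27025 genes. Windows of the same gene can overlap, and a match is a description of letters and not of binding. Of the 10 members with a window and an unadjusted p under 0.05, 7 held the letters, as did 7 of the 16 other members. The 250 bases upstream of the start are shown for 4 members that were higher in labelled transgenic hearts at an unadjusted p under 0.05 and hold the letters. Those of Lgals3, with the widest difference, and of Cd163, with the lowest, hold none. Capitals mark GAGGAA or its reverse complement.
Cd68 (chr11:69666171-69666420, - strand): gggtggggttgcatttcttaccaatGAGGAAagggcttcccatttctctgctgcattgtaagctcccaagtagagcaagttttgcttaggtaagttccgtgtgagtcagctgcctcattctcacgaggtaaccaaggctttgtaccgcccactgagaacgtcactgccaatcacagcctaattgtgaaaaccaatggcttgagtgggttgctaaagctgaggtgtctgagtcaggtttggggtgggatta
C1qb (chr4:136886201-136886450, - strand): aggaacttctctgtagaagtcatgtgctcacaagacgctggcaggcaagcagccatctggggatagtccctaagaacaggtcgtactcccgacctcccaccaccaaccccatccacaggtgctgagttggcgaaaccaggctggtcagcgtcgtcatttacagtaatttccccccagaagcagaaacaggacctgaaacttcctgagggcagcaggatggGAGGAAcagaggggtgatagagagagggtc
C1qc (chr4:136892915-136893164, - strand): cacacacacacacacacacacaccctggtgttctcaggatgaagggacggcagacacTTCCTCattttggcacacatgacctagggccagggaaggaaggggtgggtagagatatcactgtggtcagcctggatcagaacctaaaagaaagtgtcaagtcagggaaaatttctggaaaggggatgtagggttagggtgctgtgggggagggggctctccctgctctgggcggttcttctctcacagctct
Mrc1 (chr2:14229164-14229413, + strand): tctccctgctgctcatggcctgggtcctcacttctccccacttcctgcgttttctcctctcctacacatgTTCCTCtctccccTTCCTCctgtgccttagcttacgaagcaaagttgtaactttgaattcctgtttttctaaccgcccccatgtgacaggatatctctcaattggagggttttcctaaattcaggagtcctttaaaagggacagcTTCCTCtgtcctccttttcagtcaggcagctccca
Lgals3 (chr14:47373610-47373859, + strand): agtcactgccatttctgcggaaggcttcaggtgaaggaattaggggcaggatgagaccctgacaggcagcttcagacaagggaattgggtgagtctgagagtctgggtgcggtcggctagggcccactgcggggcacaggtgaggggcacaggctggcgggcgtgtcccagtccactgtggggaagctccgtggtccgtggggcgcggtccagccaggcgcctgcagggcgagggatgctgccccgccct
Cd163 (chr6:124304401-124304650, + strand): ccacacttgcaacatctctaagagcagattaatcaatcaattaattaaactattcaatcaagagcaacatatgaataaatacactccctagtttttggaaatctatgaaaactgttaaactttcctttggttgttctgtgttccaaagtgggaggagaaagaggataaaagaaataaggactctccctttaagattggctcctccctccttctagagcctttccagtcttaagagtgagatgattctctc
In the Mrc1 stretch the letters occur 3 times, in Cd68, C1qb and C1qc once each. The C1qb match begins 30 bases ahead of the gene's start and the Cd68 match 225 bases ahead.

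Most of the macrophage genes were somewhat higher in labelled transgenic hearts, but none passed the test across all probe sets. Of the 35 members 32 had a probe set above the brightness filter, a mean of log2 3.285 over the 6 arrays, and the brightest probe set stands for each gene. Timd4, Gpnmb and Itgam lay below it. In limma's moderated test, 0 of 48 member probe sets reached an adjusted p under 0.05, where 0.178% of all 22518 probe sets were called higher and 0.04% lower (0.218% in all, and 0.227% of genes). At an unadjusted p under 0.05, 19 of the 48 were higher in labelled transgenic hearts and 0 lower, against 9.41% and 6.98% of all probe sets. With 1 probe set per gene, 14 of 32 were higher and none lower, against 10.4% and 7.76% of all 11016 genes. The 3 arrays of each group did not overlap at 15 of the 32, all higher in labelled transgenic hearts, where 14.3% of all genes did so in that direction and 10.9% in the other. Of the 32 differences 30 lay above 0, against 52.4% of all genes. Their median was 0.42 on the log2 scale, against 0.01 over all genes, and it was 0.41 over all 35 members with no filter. With the fluidics station as a block the median stayed at 0.41, but only 8 of the 32 reached an unadjusted p under 0.05, against 6.97% of all genes higher and 10.3% lower. RNA of whole tissue cannot tell fewer or more cells of a type from less or more RNA per cell.

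**Figure D1:**
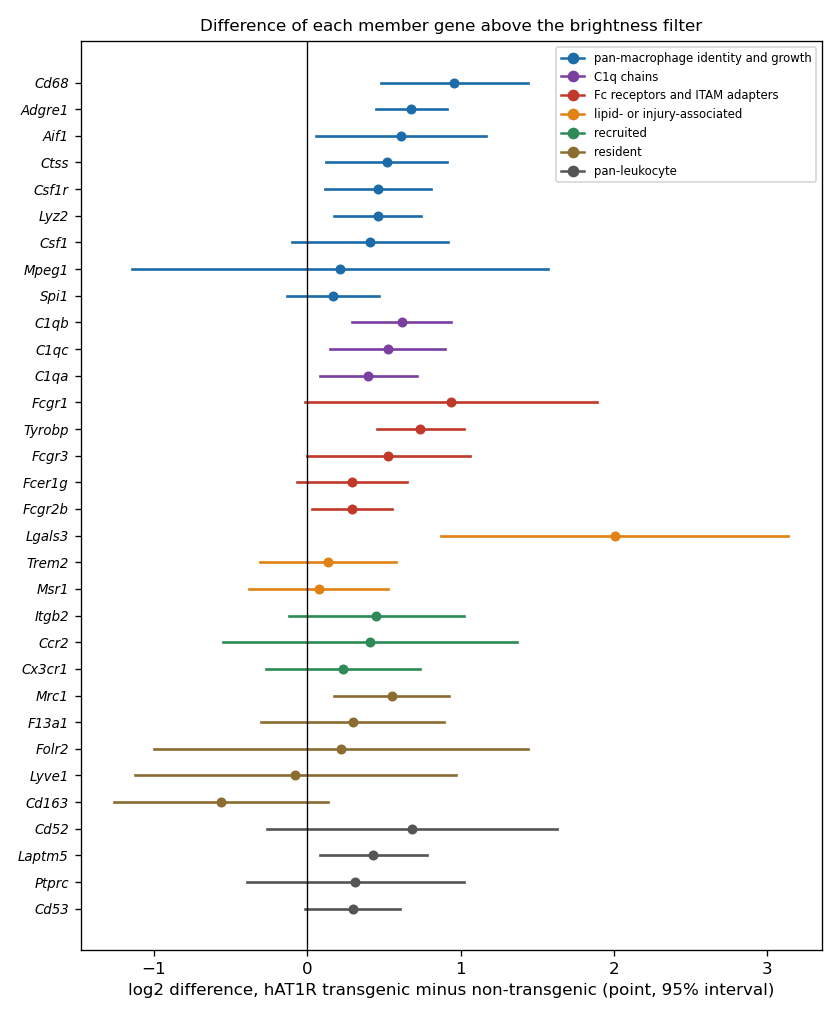
Log2 difference, hAT1R transgenic minus non-transgenic, of the 32 member genes above the brightness filter, with its 95% interval from limma, coloured by role. Lgals3 stands at 2.0, the other genes lie below 1, and Lyve1 and Cd163 lie below 0.

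The growth factor, its receptor and the lineage factor came first in order of role. Csf1, the growth factor that macrophages need, was at log2 8.60, 8.54 and 8.91 on labelled transgenic arrays and at 8.71, 8.03 and 8.07 on non-transgenic ones, a difference of 0.41 ± 0.21 (SE, unadjusted p = 0.0952 in limma, adjusted p = 0.392). Non-transgenic array 1 lay among the labelled transgenic arrays, and with the station as a block the Csf1 difference was -0.03. Its receptor Csf1r was at 9.91, 10.28 and 10.19 in labelled transgenic hearts, against 9.71, 9.45 and 9.84, without overlap, and differed by 0.46 ± 0.14 (adjusted p = 0.206). Spi1, which encodes PU.1, was dim and close to level, at 5.26 ± 0.12 (SD, n = 3) in labelled transgenic hearts and 5.09 ± 0.20 in non-transgenic ones (adjusted p = 0.554), a difference of 0.17 that was 0.34 with the station as a block. Fibroblasts also make Csf1, and 5 of 5 fibroblast genes were higher at an unadjusted p under 0.05, against 10.4% of all genes. Their summed linear signals ran from 13985 to 15617 on labelled transgenic arrays and from 10303 to 10882 on the others. The part of fibroblasts in the Csf1 values was not tested.

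Genes of macrophage identity were higher in labelled transgenic hearts without overlap for most members. Adgre1, a surface receptor used to recognise mouse macrophages, was at log2 7.0, 6.97 and 7.24 in labelled transgenic hearts, against 6.45, 6.39 and 6.32 in non-transgenic hearts. No array overlapped, and the 1.6-fold difference (95% interval from 1.36 to 1.88, adjusted p = 0.0695) was the member nearest to the threshold. Cd68, a lysosomal glycoprotein of phagocytes, was at 7.56, 7.51 and 7.82 in labelled transgenic hearts, against 7.03, 6.30 and 6.69. That was 1.95-fold higher (interval from 1.4 to 2.71, adjusted p = 0.113), and 0.60 in place of 0.96 on the log2 scale with the station as a block, since non-transgenic array 1 was the highest of its group. Lyz2, the lysozyme of myeloid cells, was the brightest member, at 11.74, 11.65 and 11.98 in labelled transgenic hearts and 11.24, 11.27 and 11.49 in non-transgenic ones. It was 1.37-fold higher (adjusted p = 0.154), and its lowest labelled transgenic array lay above its highest non-transgenic one. Ctss, a lysosomal protease that trims antigen chains, was at 8.94, 8.94 and 9.31, against 8.42, 8.40 and 8.83 (1.43-fold, adjusted p = 0.21). Aif1, the calcium-binding protein IBA1, was at 5.44, 5.78 and 6.22, against 5.35, 4.89 and 5.37 (1.53-fold, adjusted p = 0.27). These 5 genes and Csf1r are the members of the role whose groups did not overlap, while those of Csf1, Spi1 and Mpeg1 did. With all arrays the log2 differences of Adgre1, Lyz2, Ctss and Aif1 were 0.68, 0.46, 0.52 and 0.61. They were 0.61, 0.55, 0.64 and 0.46 with the station as a block.

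Mpeg1, a pore-forming protein of macrophages, was at log2 6.95, 7.0 and 8.36 in labelled transgenic hearts and at 6.36, 7.18 and 8.13 in non-transgenic hearts. Both arrays numbered 3 were high, and the difference of 0.21 ± 0.56 was within the spread (adjusted p = 0.892). With the station as a block it was 1.07. In the role of 9 genes, 9 were higher, against 52.4% of all genes, and 6 at an unadjusted p under 0.05, against 10.4%. The median of the role was 0.46.

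The C1q chains are complement products that tissue macrophages make, and the 3 chains join in 1 protein. C1qa was at log2 9.56, 9.95 and 9.98 in labelled transgenic hearts, against 9.45, 9.52 and 9.34 in non-transgenic hearts (1.32-fold, adjusted p = 0.228). C1qb was at 9.89, 10.32 and 10.23, against 9.40, 9.65 and 9.53 (1.53-fold, adjusted p = 0.12), and C1qc at 9.15, 9.57 and 9.62, against 9.09, 8.76 and 8.92 (1.44-fold, adjusted p = 0.191). In each chain, labelled transgenic array 1 was the lowest of its group and the 2 groups did not overlap. With all arrays the log2 differences of C1qa, C1qb and C1qc were 0.40, 0.61 and 0.52. They were 0.39, 0.74 and 0.36 with the station as a block. The 3 kept probe sets of C1qb gave 0.38, 0.45 and 0.61, each at an unadjusted p under 0.05. In that at 0.45 the groups overlapped slightly, with labelled transgenic array 1 at 9.38 and non-transgenic array 1 at 9.41. All 3 genes lie close together on chromosome 4.

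Fc receptors bind antibody-coated particles, and activating ones signal through adapters with an ITAM motif. Tyrobp, the adapter DAP12 that also serves Trem2, was at log2 8.31, 8.32 and 8.65 in labelled transgenic hearts, against 7.75, 7.58 and 7.73 in non-transgenic hearts, 1.67-fold higher (interval from 1.37 to 2.03, adjusted p = 0.078). The groups did not overlap, and with any 1 array left out the log2 difference ran from 0.62 to 0.80. Fcer1g, the other adapter, was at 7.59, 7.62 and 7.90, against 7.56, 7.14 and 7.54, and its groups only just failed to overlap (0.29 ± 0.15, adjusted p = 0.392), with 0.14 when the station was a block. Fcgr3, an activating receptor, was at 8.21, 7.95 and 8.36, against 7.21, 7.72 and 8.01, and overlapped (1.44-fold, adjusted p = 0.309). With the station as a block it differed by 0.96 in place of 0.53. Fcgr2b, the inhibitory receptor, was at 7.14, 6.91 and 7.13, against 6.73, 6.65 and 6.93, with a slight overlap. It differed by 0.29 ± 0.11 (adjusted p = 0.265), and its 4 kept probe sets ran from 0.13 to 0.42. Fcgr1, the high-affinity receptor, lay apart by station. It was at 4.82, 5.33 and 4.83 in labelled transgenic hearts and at 4.96 on non-transgenic array 1 of the same station, against 3.62 and 3.59 on the station 3 arrays. Its difference of 0.94 ± 0.39 was 0.03 with the station as a block, and its second probe set was at 0.05.

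Of the lipid- or injury-associated genes, Lgals3 alone had an unadjusted p under 0.05. Lgals3 encodes galectin-3, a carbohydrate-binding protein of phagocytes that other injured cells make as well. It was at log2 7.91, 6.86 and 7.56 in labelled transgenic hearts, against 4.86, 5.06 and 6.40 in non-transgenic hearts. The groups did not overlap, and non-transgenic array 3 came closest to the labelled transgenic ones. The 4.01-fold difference, with an interval from 1.83 to 8.8, was the widest of the members, and its adjusted p was 0.136. With any 1 array left out it ran from 1.72 to 2.48 on the log2 scale, and with the station as a block it was 2.58. Trem2, the lipid receptor of phagocytes, was at the floor of the measurement, at 3.26, 3.86 and 3.23 in labelled transgenic hearts and at 3.19, 3.34 and 3.41 in non-transgenic ones. Msr1, the scavenger receptor for modified lipoprotein, was at 4.56, 4.10 and 4.0, against 4.05, 3.97 and 4.41. Neither differed beyond its spread (adjusted p = 0.765 for Trem2 and adjusted p = 0.888 for Msr1), and the 3 Msr1 probe sets ran from -0.07 to 0.54. Gpnmb, a glycoprotein of lipid-laden macrophages, lay under the filter at 2.81 in labelled transgenic hearts and 2.75 in non-transgenic hearts. At levels this low, an unequal abundance may not have been detectable.

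Genes assigned here to the recruited role were dim apart from Itgb2, and for Ccr2 and Cx3cr1 the difference rested on 1 array. Whether each of them marks only cells that enter from blood was not tested. Ccr2, the receptor that brings monocytes from blood, was at log2 3.96, 3.81 and 5.30 in labelled transgenic hearts, against 3.82, 3.86 and 4.16 in non-transgenic hearts (0.41 ± 0.39, adjusted p = 0.657). Cx3cr1, the fractalkine receptor, was at 3.44, 3.54 and 4.22, against 3.48, 3.52 and 3.5 (0.23 ± 0.21, adjusted p = 0.624). Labelled transgenic array 3 was the only high one of both, and without it the differences were -0.062 and -0.0099. Itgb2, the beta chain of the leukocyte integrins, was brighter and overlapped too, at 6.41, 5.70 and 6.59, against 5.68, 5.73 and 5.94 (0.45 ± 0.23, adjusted p = 0.403). Itgam, its CD11b partner, was high on labelled transgenic array 1 alone, at 4.05, with the 2 other labelled transgenic arrays at 2.94 and 2.86 and the non-transgenic arrays at 2.88, 2.94 and 2.73. The median of the 3 kept genes was 0.41, and -0.0099 without labelled transgenic array 3.

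Resident-macrophage genes had differences of both signs. Mrc1, the mannose receptor CD206, was at log2 8.66, 8.61 and 8.21 in labelled transgenic hearts, against 8.08, 7.99 and 7.74 in non-transgenic hearts, without overlap (1.47-fold, interval from 1.13 to 1.9, adjusted p = 0.176). Its log2 difference was 0.41 in place of 0.55 with the station as a block. Cd163, the haemoglobin scavenger receptor, was at 6.77, 6.71 and 5.87, against 6.63, 7.24 and 7.15, the lowest difference of the members at -0.56 ± 0.29 (adjusted p = 0.393). Only non-transgenic array 1 overlapped with the labelled transgenic arrays, and with the station as a block the Cd163 difference was -0.18. Lyve1, the hyaluronan receptor, was at 8.48, 8.02 and 7.06, against 7.75, 8.56 and 7.49, with wide overlap and no difference beyond its spread (-0.08 ± 0.43, adjusted p = 0.951). Lymphatic or endothelial cells also carry Lyve1 and Mrc1, and the 6 lymphatic and endothelial genes had a median difference of 0.02. The part of these cells in the Lyve1 and Mrc1 values was not tested. Folr2, the folate receptor of resident cells, was at 5.95, 5.84 and 5.25, against 6.57, 4.61 and 5.21. Its difference of 0.22 ± 0.50 (adjusted p = 0.872) became -0.89 with the station as a block, because non-transgenic array 1 was the highest of all. F13a1, the A subunit of coagulation factor XIII, was at 9.55, 9.46 and 8.74, against 9.18, 9.01 and 8.69 (0.30 ± 0.24, adjusted p = 0.603), and differed by 0.08 with the station as a block. Timd4, the phosphatidylserine receptor, lay below the filter on every array, between 2.11 and 2.18. Of the 5 kept genes 3 were higher and 2 lower, where 52.4% of all genes were higher. Only 1 was higher at an unadjusted p under 0.05, where 10.4% of all genes were. The median of the 5 was 0.22. That median was 0.077 with the station as a block and ran from 0.086 without labelled transgenic array 1 to 0.43 without array 3 of that group; only leaving out non-transgenic array 2 moved it by less than 1.5 times.

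**Figure D2:**
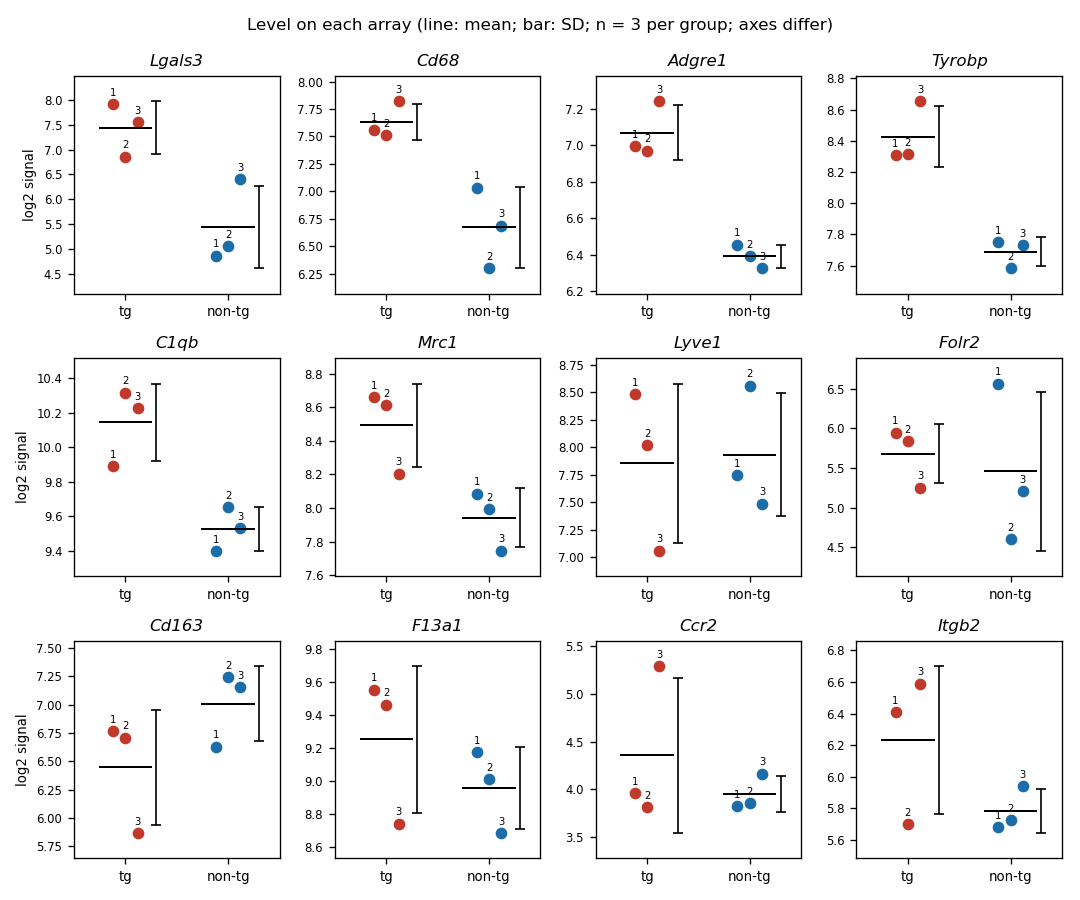
Log2 signal of 12 members on each array, hAT1R transgenic (red) left of non-transgenic (blue), with array numbers, the mean as a line and the SD as a bar (n = 3 per group). Lgals3, Cd68, Adgre1, Tyrobp, C1qb and Mrc1 do not overlap between groups, while Lyve1, Folr2, Cd163, F13a1, Ccr2 and Itgb2 do.

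Of the genes shared by all leukocytes, Ptprc and Cd52 overlapped between the groups and Laptm5 and Cd53 did not. Ptprc, which encodes CD45, was at log2 7.18, 7.07 and 7.94 in labelled transgenic hearts, against 6.66, 7.17 and 7.42 in non-transgenic hearts (adjusted p = 0.643), a difference of 0.31 that was 0.74 with the station as a block. Cd52, a small surface glycoprotein, was at 6.59, 7.01 and 8.09, against 6.72, 6.21 and 6.72 (adjusted p = 0.445), and labelled transgenic array 3 was again the high one. Laptm5, a lysosomal protein of blood cells, was at 7.64, 7.77 and 8.16, against 7.33, 7.45 and 7.48, without overlap (1.35-fold, adjusted p = 0.233). Cd53, a tetraspanin, was at 7.29, 7.11 and 7.22, against 7.0, 6.65 and 7.08, and differed by 0.30 ± 0.13 (adjusted p = 0.326). All 4 were higher, where 52.4% of all genes were, with a median of 0.37, or 0.27 without labelled transgenic array 3.

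Within the labelled transgenic group, array 3 had the highest medians of the kept recruited members and of the pan-leukocyte members, and the lowest of the resident members. As the median deviation from each gene's mean, the 3 kept recruited genes were at -0.18, -0.31 and 0.60 on labelled transgenic arrays 1, 2 and 3, and the pan-leukocyte genes at -0.03, 0.08 and 0.61. The resident genes were at 0.44, 0.27 and -0.36. Array 3 was not the highest for 8 other monocyte genes, at -0.12, 0.09 and 0.02 on the same arrays, and 10 other resident-macrophage genes were at 0.09, 0.10 and 0.04. For the macrophage identity genes the 3 labelled transgenic arrays were at 0.12, 0.14 and 0.51, and the non-transgenic ones at -0.25, -0.41 and -0.08, so that these groups did not overlap. The resident medians did overlap, with non-transgenic arrays at -0.10, -0.09 and -0.41. These are descriptions of single arrays, and array 3 was the first scanned and shared a high Xist level with array 1. The part of either in its values was not tested.

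**Figure D3:**
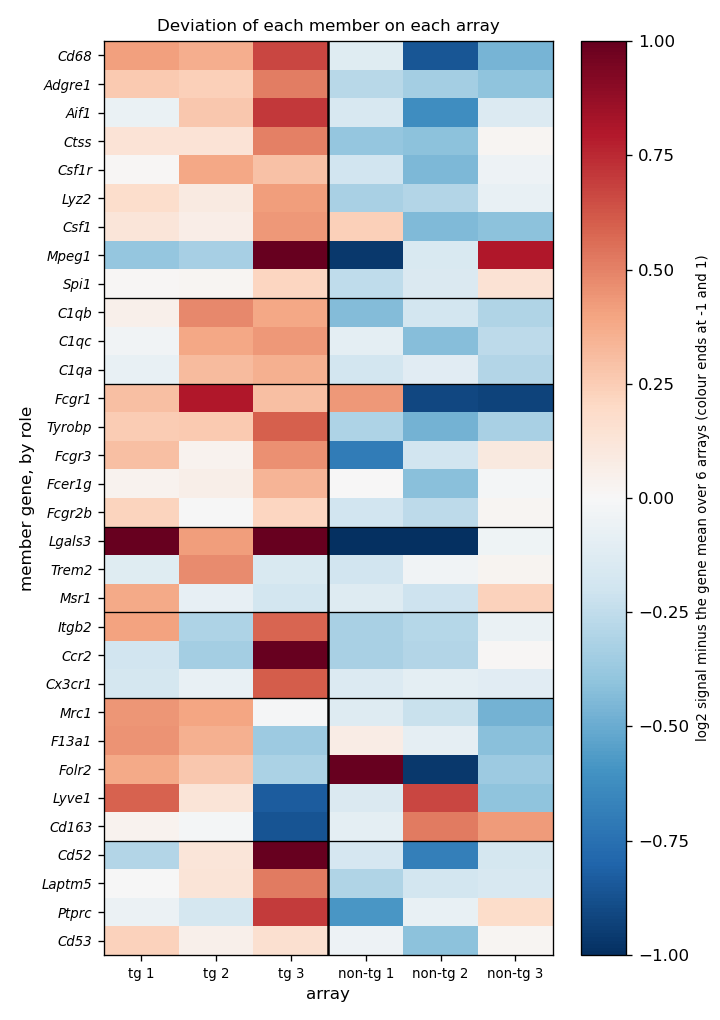
Deviation of each member's log2 signal from its mean over the 6 arrays, with hAT1R transgenic arrays left of non-transgenic ones and genes by role. The identity, C1q and Fc blocks are mostly warm on the left and cool on the right (Mpeg1, Csf1 and Fcgr1 depart from this), while the resident block is coolest on transgenic array 3 for Lyve1 and Cd163.

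Several genes could be read by more than 1 probe set, and 8 members had at least 2 above the filter. All kept probe sets of Csf1r, Fcgr1, Fcgr2b, C1qb and Laptm5 lay above 0, and both of Lyve1 just below it. Csf1 ran from -0.05 to 0.41 and Fcgr1 from 0.05 to 0.94, so these genes depended on the probe set chosen. As the mean of each gene's kept probe sets the median of the members was 0.40.

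**Figure D4:**
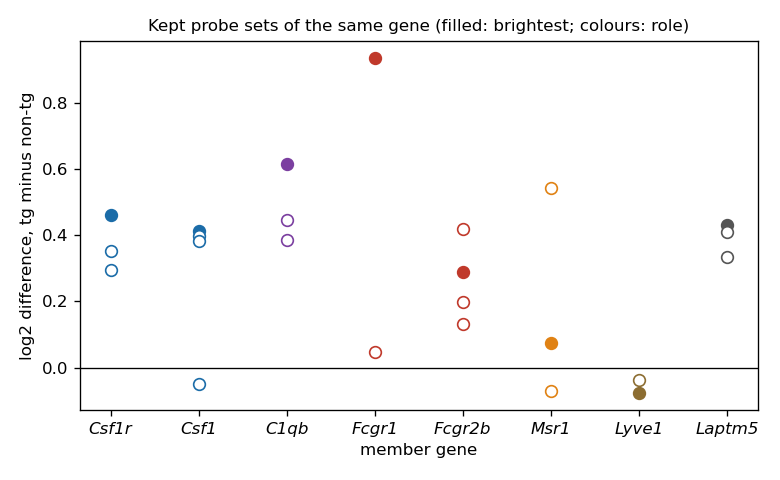
Log2 difference, hAT1R transgenic minus non-transgenic, of each kept probe set of the 8 genes with more than 1, the brightest filled. The probe sets of C1qb, Laptm5 and Csf1r lie close together above 0, whereas Fcgr1 spans 0.05 to 0.94 and Msr1 -0.07 to 0.54.

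Genes of the same pathways outside the list gave a mixed picture. Among 17 measured genes of the lipid- or injury-associated programme 1 passed over all probe sets, Apoe, the lipid carrier made by macrophages and other cells, at 0.71 ± 0.08 (adjusted p = 0.0478). It was at log2 10.77, 10.75 and 10.60 in labelled transgenic hearts, against 10.03, 10.04 and 9.91 in non-transgenic hearts, a 1.64-fold difference. No probe set was called, and so neither was Apoe, with the replicate block, within station 2, with Xist as a term, or with array 2 or 3 of either group left out. In the direction of labelled transgenic hearts 4 genes had an unadjusted p under 0.05, and against it 2. Over all genes 10.4% and 7.76% did so, and the median of the list was 0.10. The 2 lower ones were Fabp4 at -0.25 ± 0.08 and Abca1 at -0.59 ± 0.20. Fabp4, at a mean of log2 14.42, and Lpl and Cd36 of the same list, at 15.16 and 13.72, were brighter than any member. The part of cells other than macrophages in the values of this list was not tested. The lysosomal proteases Ctsl and Ctsz were at 0.51 ± 0.07 (adjusted p = 0.0671) and 0.79 ± 0.17 (adjusted p = 0.116). Of the other proteases of this kind on the list, Ctsd was at 0.21 ± 0.08 and Ctsb at -0.14 ± 0.07, lower without overlap. Of 10 other resident-macrophage genes none passed. Their 4 higher ones at an unadjusted p under 0.05 included the scavenger receptor Stab1 at 0.39 ± 0.08, which lymphatic or endothelial cells share. The endothelin receptor Ednrb at 0.58 ± 0.17 and the transcription factor Maf at 0.49 ± 0.15 were also among them. Clec10a, a dim gene with a mean of log2 3.40, was the 1 lower at that threshold, at -0.51 ± 0.16 and without overlap. Of 8 further monocyte genes only Ace, the angiotensin-converting enzyme, which endothelium also carries, reached an unadjusted p under 0.05, at 0.55 ± 0.19. Plac8 and Chil3, genes of classical monocytes, had means below the filter, with Chil3 at log2 5.50 on labelled transgenic array 1 alone.

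Complement genes had a median of 0.21 over 9 measured, with Serping1, the C1 inhibitor, at 0.40 ± 0.08 (adjusted p = 0.118), the protease C1ra at 0.41 ± 0.17 and the anaphylatoxin receptor C5ar1 at 0.25 ± 0.12. The list of ITAM signalling and inhibitory receptors had a median of 0.03 over 11 genes, and the inhibitory receptor Sirpa was at 0.57 ± 0.19. Dap, at 0.46 ± 0.12, is a death-associated protein with no ITAM role that this list also held, and Vav1, a leukocyte exchange factor, was at 0.41 ± 0.20. On the growth factor and PU.1 list 0 of 6 reached an unadjusted p under 0.05 in limma, and the nearest were Csf2ra, a GM-CSF receptor chain, at 0.49 ± 0.24, the transcription factor Runx1 at -0.22 ± 0.11 and Irf8, a partner of PU.1, at 0.53 ± 0.29.

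Markers of other blood cells were mostly below the filter. T and NK cell genes were kept for 4 of 10, with a median of -0.04, Cd4 at -0.07, Cd8a at 0.03 and Thy1 at -0.12. B cell genes were kept for 2 of 6, Ms4a1 at 0.04 and Ighm at -0.04. Dendritic cell genes were kept for 1 of 6, Zbtb46 at 0.01, and mast cell genes for 1 of 6, Tpsb2 at -0.18. Whether Zbtb46 marks only dendritic cells here was not tested. Neutrophil genes were kept for 3 of 11 and followed single arrays. Lcn2 was at log2 8.46, 6.67 and 5.48 in labelled transgenic hearts and at 6.20, 6.80 and 5.35 in non-transgenic hearts, while S100a8 and S100a9 were high on labelled transgenic array 1 and non-transgenic array 1. The defining neutrophil genes Mpo, Elane and Camp lay below the filter. Of the cell cycle genes Aurkb alone was kept, at -0.01. The lymphatic and endothelial genes nearest to the threshold were Flt4 at 0.20, Pdpn at 0.60 and Pecam1 at -0.20. Among fibroblast genes Dcn was at 0.38, Pdgfra at 0.68 and Tcf21 at 0.75. The cardiomyocyte genes were level or slightly lower, with a median of -0.08 and Ryr2 at -0.29, Pln at -0.12 and Tnni3 at -0.10.

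**Figure D5:**
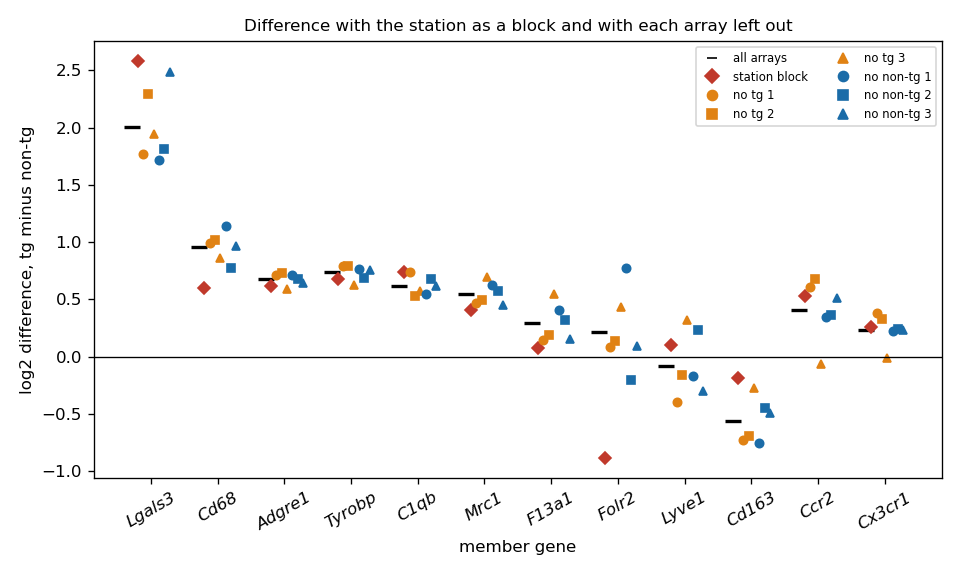
Log2 difference, hAT1R transgenic minus non-transgenic, of 12 members with all arrays (black bar), with the fluidics station as a block, and with each array left out. Lgals3, Cd68, Adgre1, Tyrobp, C1qb and Mrc1 stay above 0 throughout, and Folr2, Lyve1, Ccr2 and Cx3cr1 change sign.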

How the data were processed

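RNA of whole heart was measured on 6 Affymetrix Mouse430_2 arrays, per the file headers, from 6 ug of total RNA per the labels' protocols. The deposited log2 values were made by the authors with GCRMA, per the submitters' processing notes, with its version and any later step not given in the sources used here, and were not transformed further. Instrument records, deposited beside them, hold no expression level, from which the fluidics station was read, and the typed chip lot words assigned no group.

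From 45101 probe sets, 64 controls were left out. Those with a mean over 6 arrays above the median of log2 3.285 were kept (22518). Names came from the platform annotation of 2016, with 34945 probe sets of 1 gene, 932 of several and 9160 of none, and all 35 members matched RefSeq gene IDs. A gene was represented by its brightest probe set. Differences, labelled transgenic minus non-transgenic, were fitted with limma 3.58.1 in R 4.3.3 (lmFit, eBayes, 2-sided) with Benjamini-Hochberg adjustment over all kept probe sets at a threshold of 0.05. All p-values for genes come from that limma fit and ± SE is its moderated error. The fit was tested on simulated data. The number of arrays limits the precision.

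Members and lists were chosen with earlier results of these data known. Values on each array were given for members at an unadjusted p under 0.05 and for the 3 macrophage states, with others added after their values were seen, and from each other list up to 3 genes with the smallest p were named. Genes of those lists that were lower at an unadjusted p under 0.05, and the proteases Ctsb and Ctsd, were named in addition. Genes named only as below the filter were chosen after their values were seen. Replicate numbers were not used to pair arrays. The deviations of same-numbered arrays from their group means correlated at -0.08, -0.17 and -0.01. With 3 arrays a group such deviations constrain one another, so these values cannot show whether arrays were handled as pairs. Alternatives covered the filter, quantile normalization, median centring, variance models, array weights, replicate and station blocks, Xist, probe set means and each array left out.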

Additional observations from a re-analysis of the deposited data

How the results depend on the processing

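The median difference of the members stayed above 0 under all 17 alternatives, from 0.32 (without labelled transgenic array 3) to 0.50 (without non-transgenic array 3). The count of 14 members at an unadjusted p under 0.05, tried under these settings after seeing the data, was 8 with the station as a block (6.97% of all genes were then higher), 8 within station 2 (6.93%), and between 10 and 16 with single arrays left out (from 6.94% to 10.4%). Over all probe sets limma called 49 in the full data, but 15 with no filter, 143 above log2 5, 102 with trended and robust variance, 0 with the replicate block, 2 with the station as a block, 0 within station 2, and 0 with Xist as a term. Leaving out labelled transgenic array 1 gave 75, leaving out non-transgenic array 1 gave 5, and each of the other 4 omissions gave 0. At an unadjusted p under 0.05 the replicate block, station 2 and Xist fits gave 3324, 3771 and 3126 probe sets, and the last 4 from 2532 to 3430. Above log2 5, 1 member probe set was called, Adgre1 (adjusted p = 0.0441, from 0.0441 to 0.227 over its alternatives), and no member was called under any other setting. The replicate block changed no member's call. The recruited median ran from -0.0099 to 0.68 with single arrays left out, the Fc receptor median from 0.36 to 0.70, and was 0.33 with the station as a block and within station 2. Above log2 5 the lipid- or injury-associated median was 2.0, since Lgals3 alone was left.

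Among the members followed through every alternative the sign turned for 6, and that of Csf1 turned with the station as a block, at -0.03. With the station as a block, and within station 2, Lyve1 was at 0.11 and Folr2 at -0.89. With single arrays left out Lyve1 ran from -0.39 to 0.32, Folr2 from -0.21 to 0.77, Ccr2 from -0.062 to 0.68, Cx3cr1 from -0.0099 to 0.38, Trem2 from -0.070 to 0.24 and Msr1 from -0.10 to 0.21, and Msr1 was at -0.011 with array weights. The cause was not tested. Dim genes such as Trem2, Gpnmb and Timd4 lie near the floor of these arrays, where a difference may not be measurable.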
